A study of Mus musculus with 6 samples.

Results

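The nuclear genes for the subunits of the oxidative phosphorylation chain were followed in mouse skin RNA from 6 libraries, 3 of ATR WT and 3 of ATR mD/mD genotype. They were taken by name: all genes of the count table whose symbols start as those of the subunits of complexes I to V do, leaving out Cox6a2, Cox7a1 and names of pseudogenes. This gave 79 of the 14484 genes in the table, namely 34 of complex I, 4 of complex II, 8 of complex III, 16 of complex IV and 17 of complex V. Ndufa4 and its relative Ndufa4l2 are named after complex I but were counted with complex IV, where the Ndufa4 protein is found. All 79 were measured in all libraries, and the lowest count of any of them in a library was 123, for Cox6b2. The ATR WT libraries carry the genotype ATR +/+, Braf CA/+ and Cre +. The ATR mD/mD libraries carry ATR fl/fl, in which part of the kinase domain of ATR is removed, again with Braf CA/+ and Cre +. Both groups thus share the Braf allele and the Cre, and both are on the background C57BL/6-129J. The labels give the tissue as skin, and the series text calls the samples nevi. They do not give the promoter of the Cre, the age of the mice, or whether each library came from its own mouse. If libraries of a group were not from separate mice, the p-values below measure only the spread between these samples, which may be technical. As bulk skin was sequenced, fewer cells of a type and less RNA per cell cannot be told apart in any value below.

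Oxidative phosphorylation makes most of the ATP of a resting cell. Complex I (NADH dehydrogenase) and complex II (succinate dehydrogenase) feed electrons into the chain, complex III (cytochrome bc1) passes them to cytochrome c, complex IV (cytochrome c oxidase) hands them to oxygen, and complex V (ATP synthase) uses the proton gradient so built to make ATP. Most subunits are encoded in the nucleus, and a few core ones in mitochondrial DNA. No mitochondrially encoded gene is among the genes analysed here. Skeletal muscle and brown fat are rich in these messages, and whole skin can hold the thin muscle sheet that lies under it, so the markers of muscle are given beside the results they move with.

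Nuclear genes of the chain are known targets of the factors NRF1, GABP (an ETS factor), YY1 and the estrogen-related receptors (ERR). The RefSeq promoter table (GRCm38.p6, from 250 bases before to 50 bases after the start) held 66 of the 79 genes. In these windows the motif GCGCANGCG of NRF1 was found in 27.3%. This compares with 12.6% of the 11297 windows found for genes of the count table and 6.24% of all windows of the RefSeq table. The ETS motif CCGGAAG was in 22.7% (16.7% of table genes, 8.86% of all windows) and the YY1 motif AANATGGC in 24.2% (8.08% and 6.04%). The ERR motif TCAAGGTCA was in 3.03%, which is 2 genes, Atp5g3 and Sdhd (0.248% and 0.424%). The TATA box TATAAA was in 9.09% (8.23% and 13.6%), and CAGCTG, an E box bound by the muscle factor MyoD, in 7.58% (15.7% and 16.3%). Both strands were searched, overlapping matches were each kept, and a match is only a match of letters. Where a chain gene had several windows, the one nearest its annotated transcript start was used. For the table genes the first listed window was used, so these shares rest on a different choice of window. The 6 stretches below are the 150 bases before the start of 6 genes described below, all on the minus strand, printed 5′ to 3′ with matches to these motifs in capitals. Cox8b and Cox8a are shown as the muscle and the general isoform of the same subunit, Cox6a1 and Atp5e as genes highest in ATR mD/mD 3, and Atp5g3 and Uqcrh as 2 of the most abundant subunits.
Cox8b: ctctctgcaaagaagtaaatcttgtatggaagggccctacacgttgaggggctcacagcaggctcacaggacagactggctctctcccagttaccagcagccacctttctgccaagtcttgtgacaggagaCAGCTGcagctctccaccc
Cox8a: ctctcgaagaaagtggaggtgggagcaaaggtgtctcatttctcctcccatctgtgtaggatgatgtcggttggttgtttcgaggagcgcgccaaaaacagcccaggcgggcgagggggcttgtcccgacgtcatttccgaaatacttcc
Cox6a1: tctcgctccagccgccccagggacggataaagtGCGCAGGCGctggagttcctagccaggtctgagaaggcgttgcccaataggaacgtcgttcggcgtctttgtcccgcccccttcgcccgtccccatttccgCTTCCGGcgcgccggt
Atp5e: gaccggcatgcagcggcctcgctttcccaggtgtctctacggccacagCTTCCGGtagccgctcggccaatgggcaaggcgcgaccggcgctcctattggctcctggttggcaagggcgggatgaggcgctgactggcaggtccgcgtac
Atp5g3: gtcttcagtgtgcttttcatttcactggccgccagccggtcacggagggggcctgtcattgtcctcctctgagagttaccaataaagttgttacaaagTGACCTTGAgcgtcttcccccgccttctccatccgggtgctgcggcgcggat
Uqcrh: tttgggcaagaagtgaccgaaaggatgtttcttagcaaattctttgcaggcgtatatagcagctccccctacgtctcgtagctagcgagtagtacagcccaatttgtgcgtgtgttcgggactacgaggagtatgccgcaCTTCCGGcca
These lie at chr7:140900447-140900596 (Cox8b), chr19:7217617-7217766 (Cox8a), chr5:115348959-115349108 (Cox6a1), chr2:174464102-174464251 (Atp5e), chr2:73911327-73911476 (Atp5g3) and chr4:116075071-116075220 (Uqcrh). The Cox8b stretch holds the E box, the Cox6a1 stretch an NRF1 and an ETS match, the Atp5e and Uqcrh stretches an ETS match each, and the Atp5g3 stretch an ERR match. The Cox8a stretch holds no whole match. Starts are those of RefSeq, and GENCODE exons of the same genes reach 23 bases into the Cox6a1 stretch, where its ETS match lies, 4 into that of Atp5e and 1 into that of Uqcrh.

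Library totals ranged from 34723600 to 46847751 counts in genes, and the 2 further entries of the table, for reads with more than 1 place and ambiguous reads, held 4.93% to 5.72% of a library. Chain genes have many processed pseudogene copies, so a read that also fits a copy may have been lost to the first of these entries. Counts of the whole Atr gene were 640, 1065 and 1182 in ATR WT 1 to 3 and 728, 874 and 865 in ATR mD/mD 1 to 3, which does not check a deletion of part of the gene. A list of 32 hair follicle and hair shaft genes divided the libraries across the genotypes. Its mean level on the log2 CPM scale (CPM being counts relative to the library total, scaled with TMM) was −0.22 for ATR mD/mD 1, then 1.75 for ATR WT 1, then 1.97 for ATR mD/mD 2. The other libraries followed far above, with 6.68 for ATR WT 2, then 6.90 for ATR mD/mD 3, then 6.94 for ATR WT 3. Of these 32 genes, only Dsg4 was at 0 counts in any library. Markers of skin were present throughout: the 7 basal keratinocyte markers summed to 9988 to 14613 CPM and the 8 melanocyte markers to 155 to 884 CPM, with none at 0. The first 3 libraries in the order of the hair list are called low-hair and the last 3 high-hair libraries below, and they are sets of samples, not groups of the study. Xist had 18050 to 29207 counts for ATR WT 2, ATR WT 3 and the first ATR mD/mD library, and 23 to 40 counts for the other 3, so neither genotype nor hair level divided the libraries as Xist did.

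Among the nuclear genes followed here, the highest single levels per length were those of genes of ATP synthase and cytochrome c oxidase. Levels of different genes are compared per kb of transcript (CPM per kb, mean of the 6 libraries), which was possible for 78 genes, as Atp5o has more than 1 gene model and no length here. The median was 352 CPM per kb in complex V, 276 in complex IV, 259 in complex III, 135 in complex I and 107 in complex II. Atp5b, the catalytic beta subunit of ATP synthase (chr10:128083273-128090391, mm10, plus strand), led with 684 CPM per kb and a range over libraries of 577 to 870. Cox4i1, the general form of a subunit of cytochrome c oxidase, followed with 606 CPM per kb (413 to 859) and Atp5g2, a gene for the c ring of ATP synthase, with 602 (446 to 877). The ranges of these 3 genes overlap widely, so their order is not set by these libraries. Within complex I the accessory subunit Ndufb9 was highest with 316 CPM per kb (207 to 484), and the largest core subunit, Ndufs1, lowest with 45.4 (35.4 to 55.5). The 4 genes at the bottom were Atp5s at 6.89 CPM per kb, Cox4i2 at 7.28, Cox6b2 at 9.59 and Atp5sl at 11.0. Atp5s and Atp5sl carry an ATP synthase name without being core subunits, Cox4i2 is an isoform known from lung and from low oxygen, and Cox6b2 one known from testis.

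**Figure D1:**
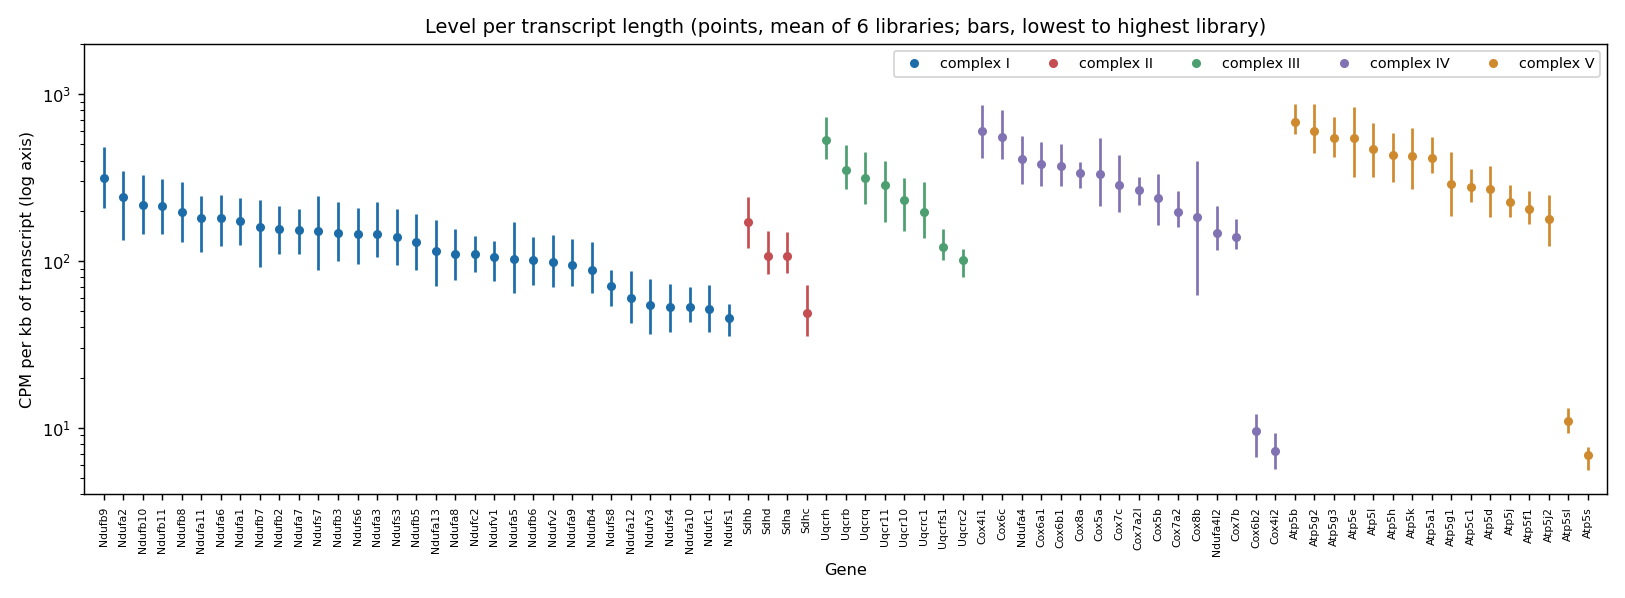
Level of single genes per kb of its transcript, in CPM per kb on a log axis, with genes along the horizontal axis ordered within complexes I to V (colours). Points are means of the 6 libraries and bars run from the lowest to the highest library. The other genes lie between 45.4 and 684 CPM per kb, and Atp5s, Cox4i2, Cox6b2 and Atp5sl lie at 11.0 or below.

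The comparison of the study asks what loss of part of the ATR kinase does to the skin transcriptome, and no chain gene passed the test for it. By edgeR's quasi-likelihood test with Benjamini-Hochberg adjustment over all 14484 genes, 0 of 79 were lower and 0 of 79 higher in ATR mD/mD at an adjusted p under 0.05, and the adjusted p was 0.9999 for all of them. Over all genes the shares were 0.0483% lower and 0% higher. At an unadjusted p under 0.05 the count was again 0 of 79, compared with 1.66% of all genes, and DESeq2 and limma-voom also called 0 of 79. In none of the 79 did the levels of the 2 groups part without overlap, which happened for 2.58% of all genes with ATR mD/mD lower and in 2.26% with ATR mD/mD higher. By the authors' deposited table, too, 0 of the 79 passed an adjusted p under 0.05, where 22 genes did in all.

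The fold changes were small and of both signs. The median log2 fold change of ATR mD/mD against ATR WT was −0.02 over the 79 genes and 0.007 over all genes. It was below 0 in 51 genes, or 64.6%, compared with 48% of all genes. By complex the median was −0.02 in complex I, −0.10 in complex II, −0.05 in complex III, −0.07 in complex IV and −0.01 in complex V. The smallest unadjusted p belonged to Cox6b2 (0.424, edgeR; log2 fold change −0.23, SE 0.26). Ndufa3, an accessory subunit of the membrane arm of complex I, had the lowest log2 fold change with −0.24 (SE 0.29), and Ndufb7, another of that arm, the highest with 0.21 (SE 0.36). The 95% interval lay within 1 log2 unit of 0 in 75 of 79 genes, or 94.9%, compared with 77.2% of all genes. A difference of 2-fold is thus outside the interval for these 75 genes. A smaller difference inside a gene's interval cannot be told from none with 3 libraries a group. The 4 genes with a wider interval were Atp5e, Cox8b, Ndufa2 and Ndufb7. The sign of the small differences rested on single libraries: the count of genes below 0 was 3 when ATR WT 1 was left out, 79 when ATR WT 3 was left out, and 31 when ATR mD/mD 2 was. The median moved to 0.29 when ATR WT 1 was left out, and to −0.23 when ATR WT 3 was. Without ATR WT 1, Ndufa6 (unadjusted p = 0.0404, edgeR) and Ndufs7 (0.0455) had log2 fold changes of 0.43 and 0.52, with an adjusted p of 0.993 for both.

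**Figure D2:**
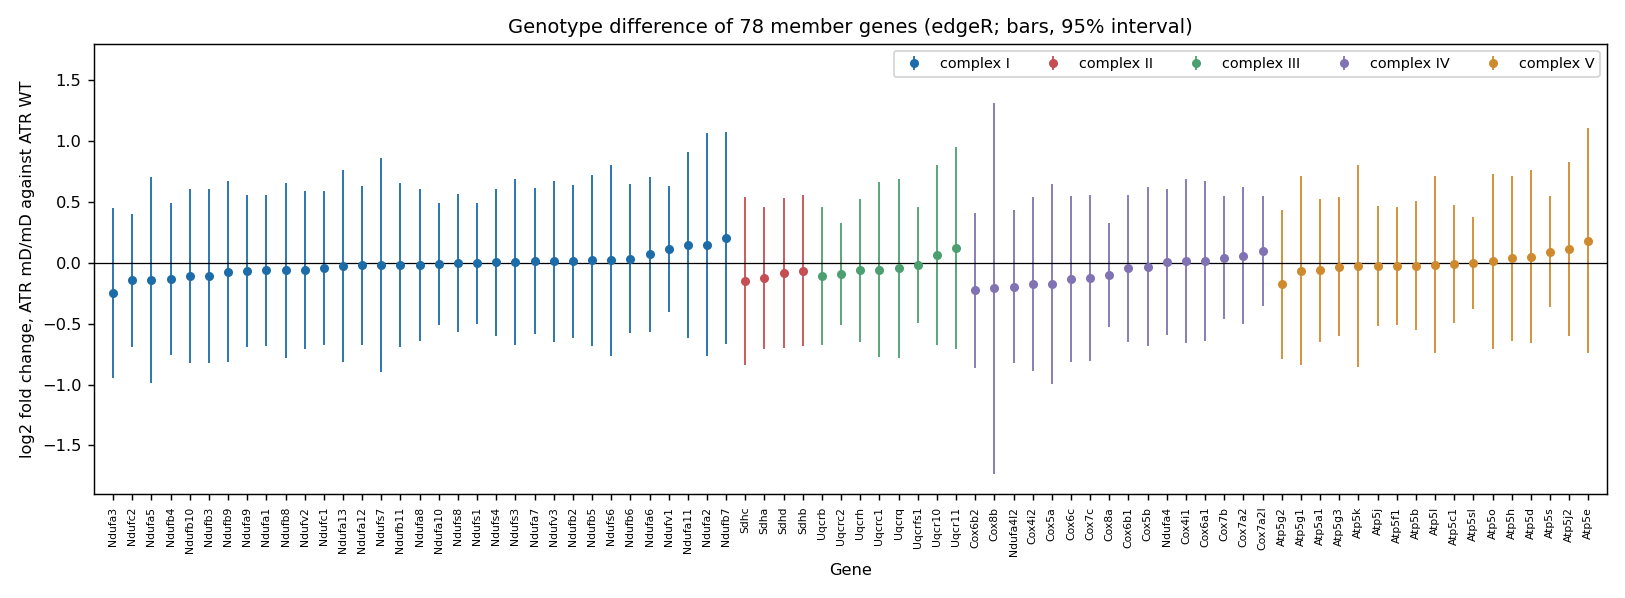
Log2 fold change of ATR mD/mD against ATR WT for 78 of the 79 genes (vertical axis), ordered within complexes I to V (colours). Points are edgeR estimates and bars are 95% intervals, all of which cross 0. Cox8b has the widest interval, from −1.74 to 1.32.

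What did vary was the level from library to library, and it varied in much the same order for most of the chain. ATR WT 1 was the highest library for 67 of the 79 genes, or 84.8%, compared with 18.6% of all genes. ATR WT 3 was the lowest for 69, or 87.3%, compared with 19.3% of all genes. Both extremes are thus ATR WT libraries, with the 3 ATR mD/mD libraries mostly between them. The mean log2 CPM of the 79 genes was 7.58, 6.98 and 6.63 in ATR WT 1 to 3 and 7.10, 6.95 and 7.20 in ATR mD/mD 1 to 3. The fold between the highest and the lowest library had a median of 1.97 and reached 2 in 39 genes, or 49.4%, compared with 28.1% of all genes. Of the 12 genes not highest in ATR WT 1, ATR mD/mD 3 was highest for 10, which is 12.7% of the 79 compared with 27.5% of all genes: Atp5e, Atp5j2, Cox4i2, Cox6a1, Cox7a2, Cox7b, Cox8a, Ndufa2, Ndufb7 and Ndufs8. The others were Atp5s, highest in ATR mD/mD 1, and Cox6b2, highest in ATR WT 2.

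**Figure D3:**
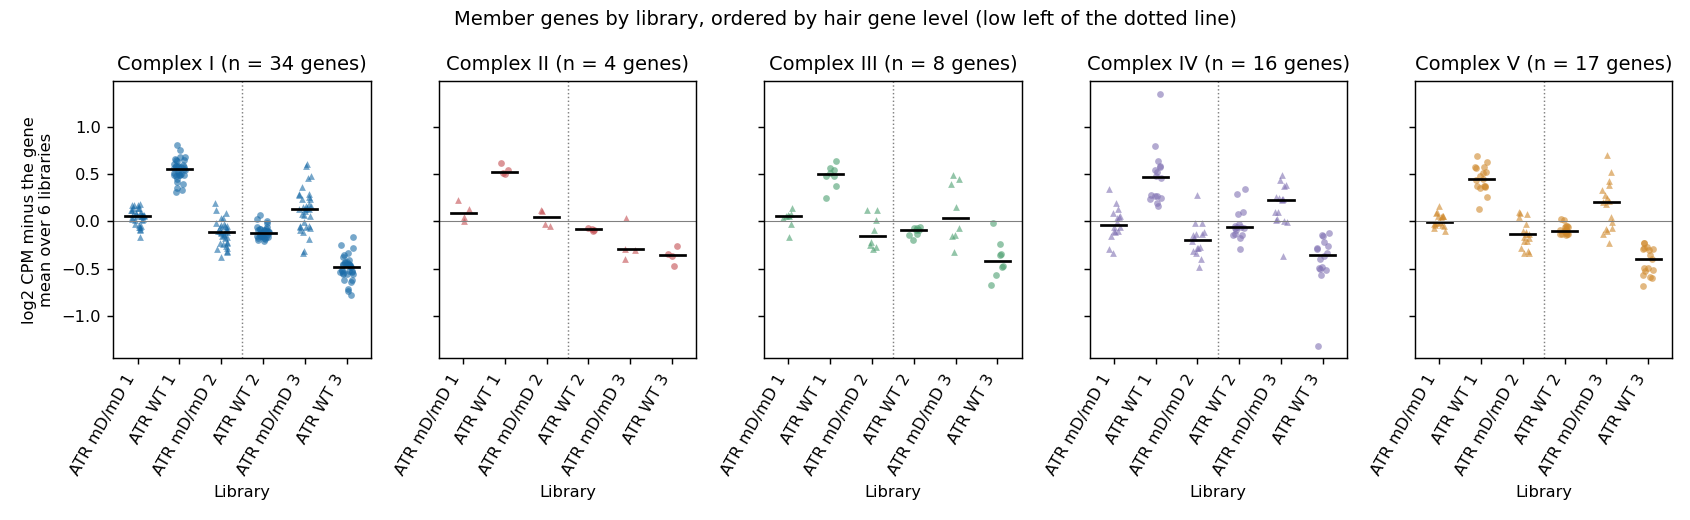
Log2 CPM of each gene minus its own mean over the 6 libraries (vertical axis), by library (horizontal axis, ordered by hair gene level, with the low-hair libraries left of the dotted line), in a panel for each complex. Circles are ATR WT genes' values, triangles ATR mD/mD values and black bars medians. ATR WT 1 stands highest in every panel with a median of 0.45 to 0.56, and ATR WT 3 has the lowest median in every panel.

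Hair level divided a minority of the genes, and all of those were lower in the high-hair libraries. The 3 high-hair libraries were all below the 3 low-hair libraries in 19 genes, or 24.1%, compared with 17.1% of all genes, and all above them in 0 genes, compared with 19.6% of all genes. Among them were Atp5a1, Atp5b, Atp5c1 and Atp5s of complex V, Cox8b of complex IV, Uqcrc1, Uqcrc2 and Uqcrfs1 of complex III, Sdha, Sdhc and Sdhd of complex II, and Ndufa6, Ndufa9, Ndufa10, Ndufb8, Ndufb9, Ndufb11 and Ndufs1 of complex I. They include the catalytic subunits of ATP synthase (Atp5a1 and Atp5b), the flavoprotein of succinate dehydrogenase (Sdha), and the core proteins and the Rieske iron-sulfur protein of complex III. All 19 genes of a skeletal muscle list were likewise lower in all 3 high-hair libraries, where their summed level was 11153 to 19158 CPM, compared with 32717 to 52259 CPM in the low-hair libraries. The summed level of 6 suprabasal keratinocyte markers was also lower in the high-hair libraries, at 5071 to 5333 CPM compared with 8044 to 11193 CPM. Of those 6 markers, 3 were lower in all 3 high-hair libraries and 1 was higher. Among other lists, 3 of 4 endothelial, 5 of 10 adipocyte and 3 of 7 basal keratinocyte markers were lower in all 3, and 0 higher. All 8 proliferation markers and 7 of 8 melanocyte markers were instead higher. ATR mD/mD 3 was highest for all 8 proliferation markers. The part of any of these lists in the levels of the 19 chain genes was not tested. Leaving out ATR mD/mD 3 made the count of chain genes lower in all high-hair libraries 37 (21.1% of all genes), and leaving out ATR mD/mD 2 made it 33 (20.5%). The count of genes higher in all high-hair libraries was 2 without ATR WT 1 and 1 without ATR WT 3.

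Within each hair level the genotypes stood in opposite order. Among the low-hair libraries the 2 ATR mD/mD libraries were both below ATR WT 1 in 78 of the 79 genes, compared with 37.5% of all genes, with a median difference of −0.58 on the log2 scale (0.006 over all genes). Among the high-hair libraries ATR mD/mD 3 was above both ATR WT libraries in 64 genes, compared with 38.6% of all genes, with a median difference of 0.41 (−0.02 over all genes). It was below both in 4 genes, Ndufs1, Sdha, Sdhc and Uqcrc2, compared with 40.7% of all genes. Each of these comparisons sets 1 library against 2, so there is no replicate of the single library and no test. Xist divided the high-hair libraries as genotype did, with 23 counts in ATR mD/mD 3 and 23005 and 29207 in ATR WT 2 and 3. Genotype and Xist level thus cannot be told apart in the high-hair difference. In the low-hair libraries Xist had 18050 counts in ATR mD/mD 1, 40 in ATR mD/mD 2 and 37 in ATR WT 1.

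Complex I takes in NADH at a peripheral arm, with 16 of the genes, and pumps protons in a membrane arm, with 18. ATR WT 1 was highest for 31 of the 34 genes and ATR WT 3 lowest for 32. Ndufb9, its most abundant message per kb, had 340, 197 and 146 CPM in ATR WT 1 to 3 and 237, 212 and 202 CPM in ATR mD/mD 1 to 3. Its ATR mD/mD values were close to each other and lay inside the range of the ATR WT values. Ndufs1, which carries iron-sulfur clusters of the peripheral arm, had 144, 106 and 104 CPM in ATR WT and 128, 133 and 91.8 CPM in ATR mD/mD, so that ATR mD/mD 3 was the lowest library. Ndufb7 had 136, 85.5 and 57.0 CPM in ATR WT and 98.7, 78.1 and 144 CPM in ATR mD/mD, so that the same library was the highest. These 2 subunits of the same complex thus had ATR mD/mD 3 at opposite ends. Ndufa2, an accessory subunit of the peripheral arm, had 195, 122 and 76.5 CPM in ATR WT and 134, 106 and 197 CPM in ATR mD/mD, a pattern like that of Ndufb7. Ndufc2, a small membrane arm subunit, had 96.8, 77.0 and 61.5 CPM in ATR WT and 65.7, 58.5 and 89.0 CPM in ATR mD/mD, with ATR mD/mD 2 the lowest library.

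Complex II oxidises succinate and belongs to the citric acid cycle as well as to the chain. Of its 4 genes, 3 were lower in all 3 high-hair libraries than in the low-hair ones, compared with 17.1% of all genes. Its flavoprotein Sdha (chr13:74322254-74350280, mm10, minus strand) had 432, 284 and 255 CPM in ATR WT and 314, 331 and 247 CPM in ATR mD/mD. The membrane anchor Sdhc had 229, 141 and 116 CPM in ATR WT and 163, 161 and 113 CPM in ATR mD/mD. In both, ATR WT 1 stood apart at the top, the other low-hair libraries came next and the high-hair libraries were lowest. The other anchor, Sdhd, had 185, 122 and 102 CPM in ATR WT and 152, 128 and 106 CPM in ATR mD/mD. The iron-sulfur protein Sdhb had 277, 182 and 137 CPM in ATR WT and 191, 184 and 195 CPM in ATR mD/mD, and it was the member of this complex in which the 2 hair levels overlapped. The median log2 difference of ATR mD/mD 3 from the ATR WT high-hair libraries was −0.10 in complex II, compared with 0.45 in complex I, 0.28 in complex III, 0.42 in complex IV and 0.42 in complex V. Complex II has only 4 genes, and its transcripts are the longest, with a median of 2066 bases compared with 761 over the 78 genes.

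Complex III passes electrons from ubiquinol to cytochrome c, and ATR WT 1 was the highest library for all 8 of its genes. The core protein Uqcrc1 (chr9:108936633-108949623, mm10, plus strand) had 494, 277 and 227 CPM in ATR WT and 332, 344 and 285 CPM in ATR mD/mD. The other core protein, Uqcrc2, had 225, 179 and 188 CPM in ATR WT and 198, 206 and 152 CPM in ATR mD/mD, with ATR mD/mD 3 lowest. Among the small subunits, Uqcr11 had 178, 111 and 76.3 CPM in ATR WT and 126, 99.5 and 171 CPM in ATR mD/mD, with ATR mD/mD 3 close to ATR WT 1 at the top. Uqcr10, another small subunit, followed the same pattern with 136, 93.6 and 65.6 CPM in ATR WT and 95.5, 80.7 and 133 CPM in ATR mD/mD. Uqcrh, the hinge protein, which binds cytochrome c1, had 400, 269 and 225 CPM in ATR WT and 293, 246 and 317 CPM in ATR mD/mD. Uqcrb, a small subunit near the ubiquinone site, had 265, 177 and 145 CPM in ATR WT and 195, 174 and 176 CPM in ATR mD/mD, so that the 3 ATR mD/mD libraries lay close together. The log2 fold changes of the complex ran from −0.11 for Uqcrb to 0.12 for Uqcr11.

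Complex IV holds the isoforms with tissue preference. Cox4i1 had 640, 398 and 308 CPM in ATR WT and 480, 408 and 473 CPM in ATR mD/mD, and Ndufa4 had 343, 230 and 176 CPM in ATR WT and 262, 243 and 249 CPM in ATR mD/mD. For both, the 3 ATR mD/mD libraries lay within the span of the ATR WT libraries. Cox5a, a general subunit, had 354, 186 and 138 CPM in ATR WT and 212, 184 and 205 CPM in ATR mD/mD, with ATR WT 1 far above the other 5. Cox4i2 was at 6.23, 6.30 and 4.30 CPM in ATR WT and 4.09, 4.09 and 6.73 CPM in ATR mD/mD. Cox6b2 was at 4.91, 5.59 and 3.93 CPM in ATR WT and 4.52, 3.12 and 4.69 CPM in ATR mD/mD. Neither of these 2 low isoforms had ATR WT 1 as its highest library. Ndufa4l2, which is known to be induced in low oxygen, had 199, 118 and 121 CPM in ATR WT and 109, 115 and 159 CPM in ATR mD/mD, and its lowest library was ATR mD/mD 1. Cox7a2l, a factor that joins complexes III and IV into supercomplexes, varied little, with 343, 256 and 231 CPM in ATR WT and 325, 281 and 284 CPM in ATR mD/mD.

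Cox8b, the muscle isoform of subunit VIII (chr7:140898945-140900446, mm10, minus strand), varied most of all 79 genes, and it moved with the muscle markers. It had 143, 45.9 and 22.6 CPM in ATR WT and 71.4, 68.1 and 43.7 CPM in ATR mD/mD, a fold of 6.35 between the highest and the lowest library. Cox8a, the general isoform, had 210, 197 and 169 CPM in ATR WT and 170, 152 and 215 CPM in ATR mD/mD, a fold of 1.42. The 2 isoforms of the same subunit thus had different lowest and highest libraries. The muscle isoforms left out of the gene set behaved like Cox8b: Cox6a2 had 306, 81.3 and 44.0 CPM in ATR WT and 150, 138 and 54.0 CPM in ATR mD/mD. Cox7a1 had 140, 38.4 and 22.7 CPM in ATR WT and 63.4, 71.6 and 34.2 CPM in ATR mD/mD. All 19 genes of a skeletal muscle list, which includes these last 2, were measured, none was at 0 in any library, and all 19 were lower in all 3 high-hair libraries than in the low-hair ones. Their summed level was 52259, 19158 and 11798 CPM in ATR WT and 32717, 32951 and 11153 CPM in ATR mD/mD. ATR WT 1 was the highest library for 18 of the 19, as it was for most chain genes, and 0 of 19 passed the edgeR test at an adjusted p under 0.05. ATR mD/mD 3 had the lowest sum, although it had the second highest mean level of the chain genes. With the muscle list level as a covariate in edgeR, the count of chain genes with a log2 fold change below 0 was 33 and 0 of 79 were called. Of 5 listed markers of thermogenic fat, 3 were measured. Their summed level was 138, 87.5 and 96.4 CPM in ATR WT and 121, 107 and 114 CPM in ATR mD/mD. The part of the muscle RNA in the levels of the chain genes was not tested further, and that of thermogenic fat was not tested.

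**Figure D4:**
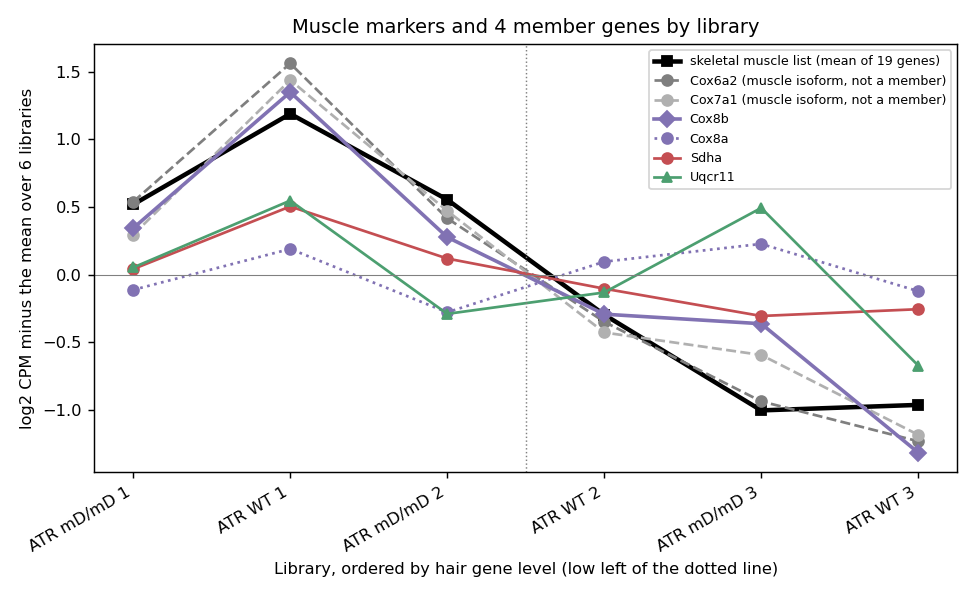
Log2 CPM minus the mean over the 6 libraries (vertical axis) by library (horizontal axis, ordered by hair gene level) for the mean of the 19 muscle markers, for the muscle isoforms Cox6a2 and Cox7a1, and for Cox8b, Cox8a, Sdha and Uqcr11. Cox8b runs with the muscle markers from its peak in ATR WT 1 to its low in ATR WT 3, whereas Cox8a and Uqcr11 are high in ATR mD/mD 3, where the muscle markers are low.

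Complex V consists of a catalytic head on stalks and a proton-driven ring in the membrane. Atp5b had 1668, 1193 and 1105 CPM in ATR WT and 1347, 1371 and 1185 CPM in ATR mD/mD. Its fold between the highest and the lowest library was 1.51, and its 3 low-hair libraries were above its 3 high-hair libraries. Atp5e, the epsilon subunit of the central stalk, had 312, 198 and 135 CPM in ATR WT and 207, 172 and 353 CPM in ATR mD/mD, a fold of 2.62. It showed the largest difference between ATR mD/mD 3 and the ATR WT high-hair libraries of the 79 genes, 1.11 on the log2 scale. Atp5k, a small membrane subunit, had 233, 145 and 99.9 CPM in ATR WT and 146, 120 and 203 CPM in ATR mD/mD, which is the same order of the 2 highest and the lowest library as in Uqcr10. The 3 genes for the c ring code for the same mature protein, and Atp5g2 had 387, 262 and 197 CPM in ATR WT and 270, 232 and 246 CPM in ATR mD/mD, with the ATR mD/mD libraries close together. Atp5g3, another of the 3, had 520, 364 and 301 CPM in ATR WT and 378, 340 and 442 CPM in ATR mD/mD, with ATR mD/mD 3 second to ATR WT 1. Atp5s varied least of all 79, with 11.1, 10.3 and 8.25 CPM in ATR WT and 11.4, 10.9 and 9.45 CPM in ATR mD/mD and a fold of 1.38.

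The difference of ATR mD/mD 3, and that of ATR WT 1, from the other genotype at the same hair level moved with the length of the transcript, among chain genes and among other genes. For transcripts up to 750 bases, the median log2 difference of ATR mD/mD 3 from the mean of ATR WT 2 and 3 was 0.46 over 38 chain genes and 0.44 over 450 other genes. From 751 to 1000 bases it was 0.42 over 12 chain genes and 0.32 over 550 others, and from 1001 to 1500 bases 0.30 over 13 and 0.20 over 1541. From 1501 to 2500 bases it was 0.17 over 12 chain genes and 0.05 over 3566 others, and above 2500 bases −0.18 over 3 and −0.11 over 8202. Across 78 chain genes Spearman's rho of length and this difference was −0.52, and across 14387 genes −0.33, where all points share the same 3 libraries. With the length of the longest annotated transcript the value over chain genes was −0.21. A list of 91 genes was taken by name for the cytosolic ribosomal proteins, as symbols starting with Rpl or Rps and a digit. This rule can also take genes of other function, such as S6 kinases. The list had a short median length of 802 bases. ATR mD/mD 3 was the highest library in 74 of the 91, compared with 27.5% of all genes. The 19 chain genes lower in all high-hair libraries had a median length of 1485 bases, compared with 683 for the others. In the low-hair libraries the difference of ATR WT 1 from ATR mD/mD 1 and 2 was 0.62, 0.61, 0.47, 0.38 and 0.42 over chain genes in the same 5 ranges of length, compared with 0.34, 0.30, 0.20, 0.07 and −0.09 over other genes. Spearman's rho of length and this difference was −0.57 across the 78 chain genes. Chain genes thus had higher medians than other genes in all 5 ranges for ATR WT 1 and in 4 of 5 for ATR mD/mD 3. The part that length has in either difference was not tested.

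**Figure D5:**
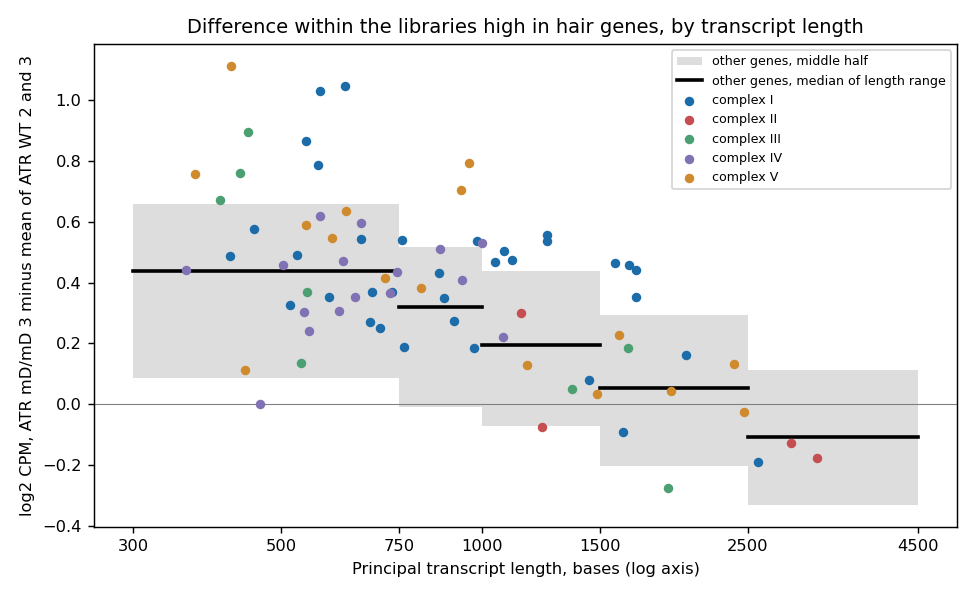
Difference of ATR mD/mD 3 from the mean of ATR WT 2 and 3 on the log2 CPM scale (vertical axis) by transcript length in bases (horizontal axis, log) for the 78 chain genes with a length. Points are genes coloured by complex, black lines are medians of all other genes in 5 ranges of length and grey boxes hold the middle 50% of them. The medians of other genes go from 0.44 in the shortest to −0.11 in the longest range, and chain genes decline with them.

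Other genes of mitochondrial energy metabolism also gave no call between genotypes, but they did not all share the order of the libraries. A further list held 10 genes tied to the chain but outside the name rule, such as Cyc1 and the cytochrome c gene Cycs. ATR WT 1 was highest for 8 of them and ATR WT 3 lowest for 8. Cycs had 278, 193 and 162 CPM in ATR WT and 205, 196 and 207 CPM in ATR mD/mD. The citric acid cycle and pyruvate dehydrogenase list had 15 of 18 genes lower in all 3 high-hair libraries, and ATR mD/mD 3 was highest for 0. Of 19 glycolysis genes 12, and of 11 fatty acid oxidation genes 7, were lower in all 3 high-hair libraries. The share of all genes lower in all 3 was 17.1%. ATR WT 1 was highest for 15 of the 18 citric acid cycle, 14 of the 19 glycolysis and 10 of the 11 fatty acid oxidation genes. ATR WT 3 was lowest for 8, 6 and 4 of them. The 77 genes of the mitochondrial ribosome instead had ATR mD/mD 3 highest in 54 and ATR WT 1 in 22, and ATR WT 3 lowest in 53, where the shares of all genes were 27.5%, 18.6% and 19.3%. Of the 45 assembly factors measured, ATR WT 1 was highest for 22 and ATR mD/mD 3 for 17. In all of these lists, and in those of 12 genes of mitochondrial DNA expression and 13 regulators of the chain, 0 genes were called at an adjusted p under 0.05 by edgeR. At an unadjusted p under 0.05 there was 1 gene in all of them, the complex III assembly factor Lyrm7, with 2.67, 2.60 and 2.25 CPM in ATR WT and 1.63, 1.47 and 1.40 CPM in ATR mD/mD (log2 fold change −0.74, SE 0.24, unadjusted p = 0.0184, adjusted p = 0.9999).

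The 13 regulators had a median span between the lowest and the highest library of 0.64 on the log2 CPM scale, compared with 0.98 for the 79 chain genes and 0.68 for all genes. Ppargc1a, the coactivator that drives mitochondrial biogenesis in muscle and brown fat, had 11.97, 6.16 and 5.92 CPM in ATR WT and 7.81, 10.6 and 4.72 CPM in ATR mD/mD, with ATR WT 1 highest and ATR mD/mD 3 lowest. Esrra, which codes for ERR alpha, had 80.3, 51.8 and 47.3 CPM in ATR WT and 57.8, 61.6 and 47.5 CPM in ATR mD/mD. Both were lower in all 3 high-hair libraries, as were 5 of the 13 regulators, compared with 17.1% of all genes. Of the 13, 3 were higher in all 3, compared with 19.6% of all genes. Tfam, which packages and transcribes mitochondrial DNA, had 47.4, 42.9 and 39.9 CPM in ATR WT and 46.2, 45.5 and 49.7 CPM in ATR mD/mD, a narrow span. Yy1 had 54.8, 57.2 and 64.6 CPM in ATR WT and 61.7, 57.1 and 72.2 CPM in ATR mD/mD, with ATR WT 1 lowest.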

How the data were processed

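Per the labels' protocols, poly(A) RNA of bead-homogenised skin went into TruSeq RNA v2 libraries. This kit keeps no strand, so reads of overlapping genes cannot be told apart. FastQC, TopHat2 2.0.12, edgeR and the build mm10 are named in the submitters' processing notes, while counter and annotation were not given in the sources used here. Per the file headers, the deposited table holds raw counts by gene for each library, and the authors' own log2 fold change, mean log2 CPM and p-value. With edgeR 4.0.16 (R 4.3.3), filterByExpr kept all 14484 genes, TMM factors were 0.923 to 1.04, and the quasi-likelihood test gave each gene's SE as its log2 fold change over the root of F. The 2 entries that name no gene were left out. Log2 CPM values use a prior count of 2. DESeq2 1.42.0 and limma-voom (limma 3.58.1) were alternatives, and the edgeR script was tested on simulated data. Libraries of a group differed by more than sampling noise, with a chi-square per degree of freedom of 55.3 or more.

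Positions and lengths are from GENCODE M21 (GRCm38), which gave 1 position to 78 of the 79 genes; the length is that of the best-supported principal transcript, the shortest where several tie, a choice made after lengths were seen. Genes described were Ndufa4, Uqcrc1, Cox4i1, in each complex the 3 with the smallest p, the 2 with the largest SD of log2 CPM and the highest per kb, and the isoforms Cox4i2, Cox6b2, Cox8b, Ndufa4l2 and Cox7a2l, 28 in all; any further gene was picked with its values in view. A single gene is counted in the totals but not reported here by itself. The gene set and all lists were chosen with earlier results of these data known.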

Additional observations from a re-analysis of the deposited data

How the results depend on the processing

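No chain gene was called at an adjusted p under 0.05 under any alternative run (edgeR with DESeq2 size factors, no filter, a filter of at least 1 CPM in 3 samples, no scaling factor, DESeq2, limma-voom, a replicate block, hair or muscle list level as a covariate, and each library left out); the lowest adjusted p was 0.774, without ATR mD/mD 3. The count of all genes called was 7, compared with 39 by DESeq2 and 4 to 10 when a library was left out (4 when ATR WT 2, ATR WT 3 or ATR mD/mD 1 was the library left out). Chain genes with a log2 fold change below 0 numbered 51, compared with 33 with the muscle list level as a covariate, 64 with that of the hair list instead (median −0.09, complex II −0.29) and 3 to 79 when a library was left out, and their median ran from −0.23 to 0.29. The labels give no sign that equal replicate numbers mark pairs, and deviations from the group means correlated at 0.633, −0.509 and 0.573 between same-numbered libraries. The fit with a replicate block gave 34 such genes, a median of 0.02, 0 chain genes called and 6 genes called in all; ATR WT 2 correlated best with ATR mD/mD 3 (0.701), not with its own number, which is a hint from the data only. The sign of the median over all 79 genes is therefore not set by these data: it was also above 0 with limma-voom (0.007), the muscle covariate (0.009) and without ATR mD/mD 2 (0.04). The count of genes highest in ATR WT 1 was 69 with DESeq2 size factors and 61 with no scaling factor, and the differences within hair levels kept their signs under both (−0.59 and −0.44 low-hair, 0.41 and 0.33 high-hair). What could be detected varied by gene with the width of its 95% interval.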
